A study of Mus musculus with 9 samples.

Results

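Glucocorticoid hormone acts in the brain through a pair of nuclear receptors, and the 10 genes described here are those receptors, an enzyme that supplies their ligand and genes that the hormone is known to induce. They were taken by gene symbol from a written list, which was drawn up with earlier results of these data known though its rule uses no measured value, and all 10 were measured, each by 1 probe set, among 19505 named genes on the array. The receptors are Nr3c1, the glucocorticoid receptor, and Nr3c2, the mineralocorticoid receptor. Hsd11b1 regenerates active hormone from its inert form inside cells. The targets are Fkbp5, Sgk1, Tsc22d3, Zbtb16, Klf9, Mt1 and Mt2.

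Corticosterone, the main glucocorticoid of mice, crosses into the brain and binds both receptors in the cytoplasm, where chaperones of the Hsp90 system hold them ready. The mineralocorticoid receptor has the higher affinity and is abundant in the hippocampus, while the glucocorticoid receptor is found in most brain cells and is engaged as hormone rises with stress or the daily peak. The bound receptor enters the nucleus and binds short palindromic DNA elements. Fkbp5, one of the most responsive targets, codes for a co-chaperone that lowers the receptor's affinity for hormone and so closes a feedback loop. Leptin-deficient ob/ob mice are known for high circulating corticosterone, which is background here and was not measured in these files.

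Whole-genome signals were measured in brain RNA of male C57BL/6JHamSlc mice on 9 Clariom S mouse arrays, 3 per group. One group was wild type (+/+) and another ob/ob, both on vehicle, and the last was ob/ob dosed by oral gavage with VE, a Vigna umbellata extract, at 100 mg/kg; all mice arrived at 6 weeks of age, were acclimatized for 1 week and were dosed for 42 days on standard chow. The ob allele removes functional leptin from every cell from birth, so the ob/ob groups differ from wild type in obesity as well as in genotype, no wild-type group received VE, and which brain region was taken is not named in the labels. The series text also mentions another dose, and the dose given here is that of the labels. Nothing in the labels says that arrays of a group came from separate RNA preparations beyond the replicate number. The p-values therefore measure the spread between these samples.

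The labelled tissue was looked at through marker genes because the series text names white adipose tissue. The neuronal genes Snap25 and Syt1 stood at 15.16 to 18.78 and 15.47 to 19.37 log2 units over the 9 arrays, Adipoq, which defines fat cells, at 5.36 to 6.00, and Cidec, a lipid droplet gene of fat cells, at 5.20 to 6.03. Signals of different probe sets also depend on the probes and no detection calls were used, so these values do not settle the tissue. VE array 2 stood apart, with a correlation of 0.962 to 0.970 with the other arrays, and its highest signal was 16.37 where the other arrays reached 19.01 to 19.93. On that array 8 of the 10 genes had their lowest deposited value, against 61.9% of the 7402 brightest probe sets and 37.4% of all; after quantile normalization, which gives all arrays the same distribution of values, 0 of the 10 did, against 24.1% of all. The main comparisons of the 10 genes are therefore given both on the deposited values and after quantile normalization. Among other cell types, 1 of 7 oligodendrocyte, 1 of 7 microglia, 2 of 8 choroid plexus and 1 of 8 meningeal and fibroblast markers were called lower in ob/ob vehicle against wild type on the deposited values, where 0.73% of all probe sets were. After quantile normalization these counts were 1, 3, 2 and 1, where 1.13% of all were, and the part of these markers in the results was not tested. Since the tissue is bulk, fewer cells of a type and less RNA per cell cannot be told apart in any value here.

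DNA elements that the receptor can bind were looked for in RefSeq promoter windows on GRCm38.p6, 250 bases upstream of each listed start, and they are shown because the members are grouped here as targets of one receptor. The table gave 15 windows for 8 of the 10 genes, 6 of them for Sgk1 and 3 for Tsc22d3. The palindromic core, the arms GNACA and TGTNC with 3 bases of any kind between them, which reads the same way on both strands, was found in 1 window of Mt1 and 1 of Sgk1, and in 0.387% of all 32851 windows. Both sites are printed with 8 bases on each side and the core in capitals. Both lie within the range that RefSeq gives for the gene, upstream of the start listed for the window but downstream of another start, so neither is upstream of the whole gene.
Mt1, chr8:94178987-94179015, plus strand, 81 bases between the core and the listed start: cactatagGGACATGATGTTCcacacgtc
Sgk1, chr10:21993694-21993722, plus strand, 175 bases between the core and the listed start: tgcggaaaGAACAGAATGTTCtcggagat
The single arm AGAACA, searched on both strands, was in 4 of the 15 windows, those of Sgk1 and Tsc22d3, and in 16.1% of all windows. In Sgk1 it lies partly within the core printed above.

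Metallothionein genes are also induced by zinc through metal response elements, TGCACNC or TGCGCNC on either strand, which were in 21.4% of all windows. The windows of Mt1, Nr3c2 and Hsd11b1 held 1 such match each. Mt2, the neighbour of Mt1 with no annotated gene start between them, had 3 such matches, as 1.26% of windows had 3 or more. Its window, chr8:94172368-94172617 on the plus strand, is printed with those matches in capitals.
Mt2: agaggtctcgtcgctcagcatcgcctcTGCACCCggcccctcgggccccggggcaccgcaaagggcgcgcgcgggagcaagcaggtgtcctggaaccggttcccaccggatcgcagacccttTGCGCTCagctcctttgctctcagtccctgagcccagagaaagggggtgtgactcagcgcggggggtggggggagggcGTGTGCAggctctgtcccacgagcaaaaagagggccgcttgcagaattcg
The windows of Fkbp5 and Klf9 held none of the 3 motifs, which says only that these letters are not within 250 bases of their listed starts.

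In ob/ob brain against wild type, Fkbp5 was the 1 gene of the 10 to pass the test, and it did so after quantile normalization but not on the deposited values. Changes were tested with limma, Benjamini-Hochberg adjusted over all 22206 probe sets and called at adjusted p under 0.05. On the deposited values 0 of the 10 genes were called, where 1.27% of all probe sets were. After quantile normalization 1 of the 10 was called, where 2.84% of all were. By the looser rule of the series text, unadjusted p under 0.05 with a fold over 1.1, 2 of the 10 passed on the deposited values (Fkbp5 higher and Hsd11b1 lower), which is near the 20.1% of all probe sets that passed, and 1 (Fkbp5) after quantile normalization, where 18.2% of all did. Wild-type and ob/ob vehicle arrays did not overlap for 5 of the 10 genes on the deposited values, as for 33.3% of all probe sets: 1 was higher, Fkbp5, where 15.8% of all were, and 4 were lower, Hsd11b1, Tsc22d3, Mt1 and Mt2, where 17.5% were. The median change of the 10 genes was -0.33 on the deposited values and -0.07 after quantile normalization. Over all probe sets it was 0.02 and -0.01. Over the 7402 brightest probe sets, where all of these genes but Nr3c1 lie, it was -0.27 and -0.04.

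In VE-treated against vehicle ob/ob brain, 0 of the 10 genes were called on the deposited values, where 0.486% of all probe sets were, and 0 after quantile normalization, where 1.46% were. By the looser rule 2 of the 10 passed on the deposited values, Nr3c2 and Mt2, where 13.3% of all probe sets passed; both were lower, as 10.1% of all were. After quantile normalization these were 4, Nr3c2, Fkbp5, Zbtb16 and Mt1, where 16.9% of all passed; all 4 were lower, as 9.12% of all were. On the deposited values the VE arrays lay apart from the ob/ob vehicle ones for 1 of the 10 genes, Nr3c2, as for 16.5% of all probe sets. The median of the 10 genes was -0.49 and -0.24 on those scalings, against -0.07 and 0.02 over all. In VE-treated ob/ob against wild-type brain, 0 of the 10 were called on the deposited values, where 0.0991% of all were, and after quantile normalization none was, where 0% of all were. By the looser rule 4 passed on the deposited values, Nr3c2, Hsd11b1, Mt1 and Mt2, where 12.2% of all did; all 4 were lower, as 9.21% of all were. These 4 were also the genes whose VE and wild-type arrays did not overlap, as for 16.8% of all probe sets. By the same rule after quantile normalization 3 passed, Fkbp5 higher with Nr3c2 and Mt1 lower, where 10.5% of all did. This comparison shares its arrays with the other two.

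**Figure D1:**
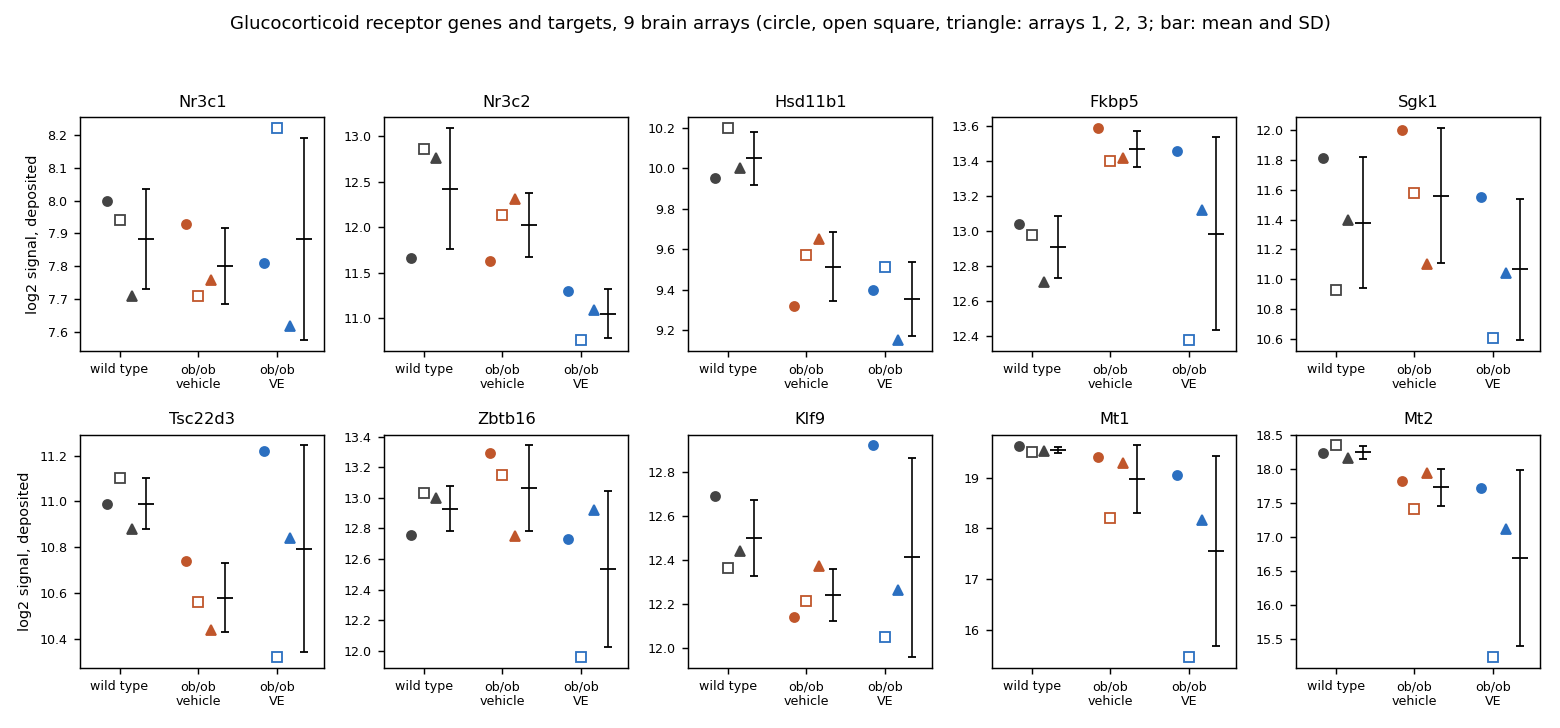
Deposited log2 signal (vertical axis) of each of the 10 genes on the 9 brain arrays, by group; circles, open squares and triangles are arrays 1, 2 and 3, and the bars show the mean and SD of 3 arrays. The open blue square, VE array 2, is the lowest point in 8 panels and the highest in that of Nr3c1, and Fkbp5 shows the 3 ob/ob vehicle arrays (13.40 to 13.59) above the wild-type ones (12.71 to 13.04).

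Of the receptors, Nr3c1 was close to level across the groups. Its deposited log2 signals were 8.0, 7.94 and 7.71 in wild type, 7.93, 7.71 and 7.76 in ob/ob vehicle, and 7.81, 8.22 and 7.62 in ob/ob VE. The 3 ranges overlapped, and VE array 2 held the highest value. Its change in ob/ob vehicle against wild type was -0.08 (SE 0.211, 95% interval -0.54 to 0.37, limma adjusted p 0.851, n = 3 per group), and against ob/ob vehicle the VE group was at 0.08 (95% interval -0.37 to 0.54); after quantile normalization these were -0.06 and 0.19. The deposited intervals reach 0.54 log2 units. Without VE array 2 the change with VE was -0.09.

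Nr3c2, the high-affinity receptor, had its 3 lowest values on the 3 VE arrays. It stood at 11.66, 12.86 and 12.76 in wild type, at 11.63, 12.13 and 12.31 in ob/ob vehicle, and at 11.30, 10.76 and 11.09 in ob/ob VE. The VE arrays lay below every other array, while wild-type array 1 lay beside ob/ob array 1. VE against ob/ob vehicle was at -0.97 (SE 0.311, 95% interval -1.65 to -0.30, n = 3 per group), which did not pass the test (limma adjusted p 0.184), and 4.32% of all probe sets had a smaller p. VE against wild type was at -1.38 (SE 0.311, 95% interval -2.05 to -0.71, limma adjusted p 0.122). After quantile normalization the difference against ob/ob vehicle was -0.95 (limma adjusted p 0.161). The difference against wild type was smaller than as deposited, at -1.03 (limma adjusted p 0.326). Without VE array 2 on the deposited values these differences were -0.83 and -1.23, in that order. Leaving out wild-type array 1 brought the VE against wild-type difference to -1.76 and past the threshold (limma adjusted p 0.0345). Weighting arrays by their quality did so too (-1.42, limma adjusted p 0.00032). With those weights the change against ob/ob vehicle was -0.97 and also passed (limma adjusted p 0.00956). The weights called 3286 of all 22206 probe sets in VE against wild type and 3307 in VE against ob/ob vehicle. Without them 22 and 108 were called. With wild-type array 1 left out, 30 were called in VE against wild type.

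Genes of the hippocampus, where Nr3c2 is abundant, were at low levels on the same arrays. The mean log2 signal of 7 hippocampal markers was 8.81, 9.61 and 9.40 in wild type, 8.55, 8.73 and 8.55 in ob/ob vehicle, and 8.33, 8.13 and 8.06 in ob/ob VE, so that the VE arrays were lowest and wild-type array 1 the lowest of its group, as for Nr3c2. On the deposited values all 7 markers were below 0 in VE against ob/ob vehicle, 0 of the 7 were called (2 at an unadjusted p under 0.05 in limma), and their median was -0.35 against -0.07 over all probe sets; after quantile normalization 2 were above 0 and the median was -0.26. In VE against wild type 0 of the 7 were called, but all 7 passed the looser rule, where 12.2% of all probe sets did, and their median was -0.96, or -0.82 after quantile normalization. Prox1 is a transcription factor of dentate granule cells. Its difference between VE-treated and vehicle-treated ob/ob brain was -1.21 (SE 0.313, limma adjusted p 0.0987, n = 3 per group). Prox1 passed the moderated F test for any difference among the groups under both scalings (adjusted p 0.043 and 0.0401). The part of these markers in the Nr3c2 values was not tested.

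Hsd11b1, the enzyme that regenerates corticosterone, was highest on the 3 wild-type arrays on the deposited values. Its signals were 9.95, 10.20 and 10 in wild type, 9.32, 9.57 and 9.65 in ob/ob vehicle, and 9.40, 9.51 and 9.15 in ob/ob VE. The wild-type arrays lay above all 6 ob/ob arrays, and both ob/ob groups overlapped. Against wild type the ob/ob vehicle group was at -0.54 (SE 0.198, 95% interval -0.97 to -0.11, limma adjusted p 0.16, n = 3 per group) and the VE group at -0.70 (95% interval -1.13 to -0.27, adjusted p 0.195). After quantile normalization they were -0.33 and -0.44 (limma adjusted p 0.487 and 0.523). VE array 2 then stood at 9.95, within the wild-type range of 9.78 to 10.05. The VE difference from wild type passed with array weights (-0.88, limma adjusted p 0.000697), as 3286 of all 22206 probe sets did.

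Fkbp5, the feedback co-chaperone, had its highest group mean in ob/ob vehicle under both scalings. As deposited, it was at 13.04, 12.98 and 12.71 in wild type, at 13.59, 13.40 and 13.42 in ob/ob vehicle, and at 13.46, 12.38 and 13.12 in ob/ob VE. The ob/ob vehicle arrays lay above the wild-type ones with no overlap, and the VE arrays spanned both groups, with array 2 the lowest of all 9. The change in ob/ob vehicle was 0.56 (SE 0.258, 95% interval 0.00 to 1.12, limma adjusted p 0.247, n = 3 per group) or 1.47-fold. It passed with array weights (0.57, limma adjusted p 0.044), as 3601 of all 22206 probe sets did.

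After quantile normalization the 3 groups of Fkbp5 separated. Wild type was at 12.77, 12.76 and 12.52, ob/ob vehicle at 13.45, 13.67 and 13.50, and ob/ob VE at 13.20, 13.14 and 13.13, so that no range touched another. On that scale ob/ob vehicle and wild-type arrays did not overlap for 28.9% of all probe sets. The share was 20.3% for VE against ob/ob vehicle and 15.9% for VE against wild type. Fkbp5 rose by 0.85 in ob/ob vehicle (SE 0.166, 95% interval 0.49 to 1.21, limma adjusted p 0.0199, n = 3 per group), or 1.81-fold, and it was also the 1 member called for any difference among the 3 groups (moderated F test of limma, adjusted p 0.0436), where 2.13% of all probe sets were. On the deposited values that F test called 0 of the 10, against 1.07% of all, and 4 at an unadjusted p under 0.05, against 19% of all. With VE the level was at -0.38 against ob/ob vehicle (SE 0.166, 95% interval -0.74 to -0.02, limma adjusted p 0.268), and at 0.47 against wild type (95% interval 0.11 to 0.83, adjusted p 0.378), and neither passed.

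The Fkbp5 call also rests on single arrays. Quantile normalization was repeated with each array left out, a check added after seeing the data. The change stayed between 0.77 and 0.89, and the limma adjusted p was 0.0689, 0.061 and 0.1 without wild-type array 1, 2 or 3 and 0.0862 and 0.0801 without ob/ob vehicle array 2 or 3, so each of these ended the call. Calls over all probe sets fell with them, from 631 to 119, 214 and 170 without wild-type array 1, 2 or 3 and to 0 and 1 without ob/ob vehicle array 2 or 3, so the loss was not particular to Fkbp5. Without ob/ob vehicle array 1 the call held (adjusted p 0.0392), as it did without VE array 1, 2 or 3 (adjusted p 0.0278, 0.00613 and 0.0269). On the deposited values the change without VE array 2 was 0.56 with an adjusted p of 0.0508.

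**Figure D2:**
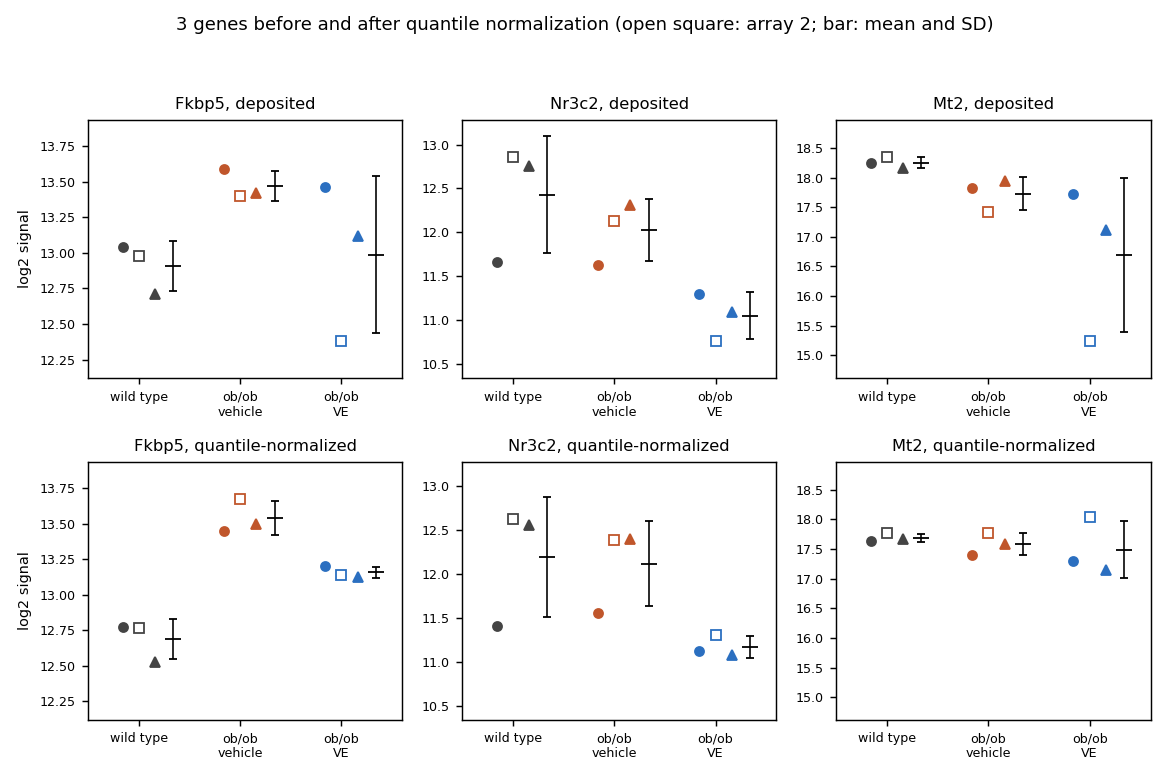
Log2 signal of Fkbp5, Nr3c2 and Mt2 on the 9 arrays, as deposited (top) and after quantile normalization (bottom), with the same vertical range for a gene; open squares are array 2 of each group and bars the mean and SD of 3 arrays. For Fkbp5, VE array 2 goes from 12.38 to 13.14, next to the other VE arrays, for Nr3c2 the VE arrays are lowest in both rows, and for Mt2 VE array 2 goes from 15.24, the lowest value, to 18.03, the highest.

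Sgk1, a kinase induced by both receptors, and Zbtb16, a zinc finger repressor that glucocorticoids induce strongly, had overlapping groups throughout. Sgk1 was at 11.81, 10.93 and 11.40 in wild type, 12.00, 11.58 and 11.10 in ob/ob vehicle, and 11.55, 10.61 and 11.04 in ob/ob VE. Its spread within each group (SD 0.440 to 0.471) was larger than the change of 0.18 in ob/ob vehicle (limma adjusted p 0.773, SE 0.307, n = 3 per group), and that change was -0.05 without wild-type array 2 and -0.04 without ob/ob vehicle array 1. With VE it was at -0.49 against ob/ob vehicle (95% interval -1.16 to 0.17, adjusted p 0.526).

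Zbtb16 was at 12.76, 13.03 and 13.00 in wild type, 13.29, 13.15 and 12.75 in ob/ob vehicle, and 12.73, 11.96 and 12.92 in ob/ob VE. VE array 2 was the one low value. After quantile normalization the ob/ob vehicle change was 0.43 for Zbtb16 (SE 0.205, 95% interval -0.01 to 0.88, limma adjusted p 0.284, n = 3 per group) and 0.45 for Sgk1 (SE 0.246, adjusted p 0.367), against 0.13 and 0.18 on the deposited values. With VE these were -0.45 and -0.47 against ob/ob vehicle (limma adjusted p 0.291 and 0.355).

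Tsc22d3, which codes for the anti-inflammatory leucine zipper protein GILZ, had the other order. It was at 10.99, 11.10 and 10.88 in wild type, 10.74, 10.56 and 10.44 in ob/ob vehicle, and 11.22, 10.32 and 10.84 in ob/ob VE. The ob/ob vehicle arrays lay below the wild-type ones with no overlap, and the difference of -0.41 did not pass (SE 0.236, 95% interval -0.92 to 0.10, limma adjusted p 0.346, n = 3 per group). After quantile normalization it was -0.18 (limma adjusted p 0.634). The VE arrays, at 10.82 to 11.05, then lay above the ob/ob vehicle ones, at 10.53 to 10.74, as for 10.2% of all probe sets. The difference of VE from ob/ob vehicle was 0.26 (limma adjusted p 0.457).

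Klf9, a Krüppel-like transcription factor induced by glucocorticoid and thyroid hormone, changed sign with the scaling. Its signals were 12.69, 12.36 and 12.44 in wild type, 12.14, 12.21 and 12.37 in ob/ob vehicle, and 12.92, 12.05 and 12.26 in ob/ob VE. The ob/ob vehicle difference was -0.26 (SE 0.238, 95% interval -0.77 to 0.26, limma adjusted p 0.573, n = 3 per group) on the deposited values and 0.05 (95% interval -0.38 to 0.49, adjusted p 0.926) after quantile normalization.

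Mt1 and Mt2 code for small cysteine-rich proteins that bind zinc and copper and that astrocytes make in quantity. On the deposited values both were highest in wild type and lowest in VE array 2. Mt1 was at 19.62, 19.50 and 19.53 in wild type, 19.42, 18.21 and 19.30 in ob/ob vehicle, and 19.05, 15.46 and 18.17 in ob/ob VE. Mt2 was at 18.24, 18.35 and 18.16, at 17.83, 17.42 and 17.94, and at 17.72, 15.24 and 17.12 in the same order. For both genes the wild-type arrays lay above all 6 ob/ob arrays.

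The metallothionein differences with VE depended on VE array 2. Against ob/ob vehicle Mt1 was at -1.42 (SE 0.660, limma adjusted p 0.377, n = 3 per group) and Mt2 at -1.04 (SE 0.459, adjusted p 0.348). Without VE array 2 these were -0.37 and -0.31, and after quantile normalization -0.41 for Mt1 (95% interval -0.77 to -0.06, adjusted p 0.23) and -0.09 for Mt2 (95% interval -0.58 to 0.40, adjusted p 0.876). Against wild type the VE group was at -1.99 for Mt1 and -1.56 for Mt2 (limma adjusted p 0.255 and 0.209), at -0.94 and -0.83 without VE array 2, and at -0.52 and -0.20 after quantile normalization. Against wild type Mt2 passed without VE array 1 (-2.07, limma adjusted p 0.0445), which kept VE array 2. There 158 of all 22206 probe sets were called, against 22 with all arrays. With array weights Mt1 was at -1.35 (limma adjusted p 0.0028) and Mt2 at -1.11 (adjusted p 0.00117) against wild type. Array weights called 3286 of all 22206 probe sets in that comparison.

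In ob/ob vehicle against wild type Mt1 was at -0.57 and Mt2 at -0.52 (limma adjusted p 0.657 and 0.552, n = 3 per group), and at -0.10 and -0.11 after quantile normalization (adjusted p 0.803 and 0.854). Mt1 sat near the top of the scale, 0.31 to 0.43 below the highest value of its array in wild type, where 8 probe sets shared the value 19.93. The 2 genes are close relatives, and whether the probe sets tell their transcripts apart is not given in the sources used here.

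The mean of 8 astrocyte markers, like Mt1 and Mt2, was higher on each wild-type array than on all 6 ob/ob arrays on the deposited values. This was not particular to astrocytes. The same held for the means of the oligodendrocyte, microglia, choroid plexus, hippocampal, and meningeal and fibroblast markers, and of the 10 genes themselves. The neuron, endothelial and white adipose marker means overlapped. The astrocyte mean was 12.89 to 13.04 in wild type, 12.03 to 12.42 in ob/ob vehicle and 11.63 to 12.52 in ob/ob VE. VE array 2 was the lowest, and single markers such as Slc1a2 overlapped. After quantile normalization only VE array 2, at 12.70, reached the wild-type range of 12.66 to 12.75. The ob/ob vehicle arrays were then at 12.13 to 12.25 and the other VE arrays at 12.29 and 12.24. Mt1 and Mt2 of ob/ob vehicle overlapped wild type on that scale. Of the 8, 3 were called lower in ob/ob vehicle against wild type on the deposited values, where 0.73% of all probe sets were, and 1 after quantile normalization, where 1.13% were, and their median was -0.61 and -0.40. In VE against wild type their median was -1.04 and -0.11, and in VE against ob/ob vehicle 0.11 and 0.29, where Mt1 and Mt2 were below 0. The part of these markers in the Mt1 and Mt2 values was not tested.

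**Figure D3:**
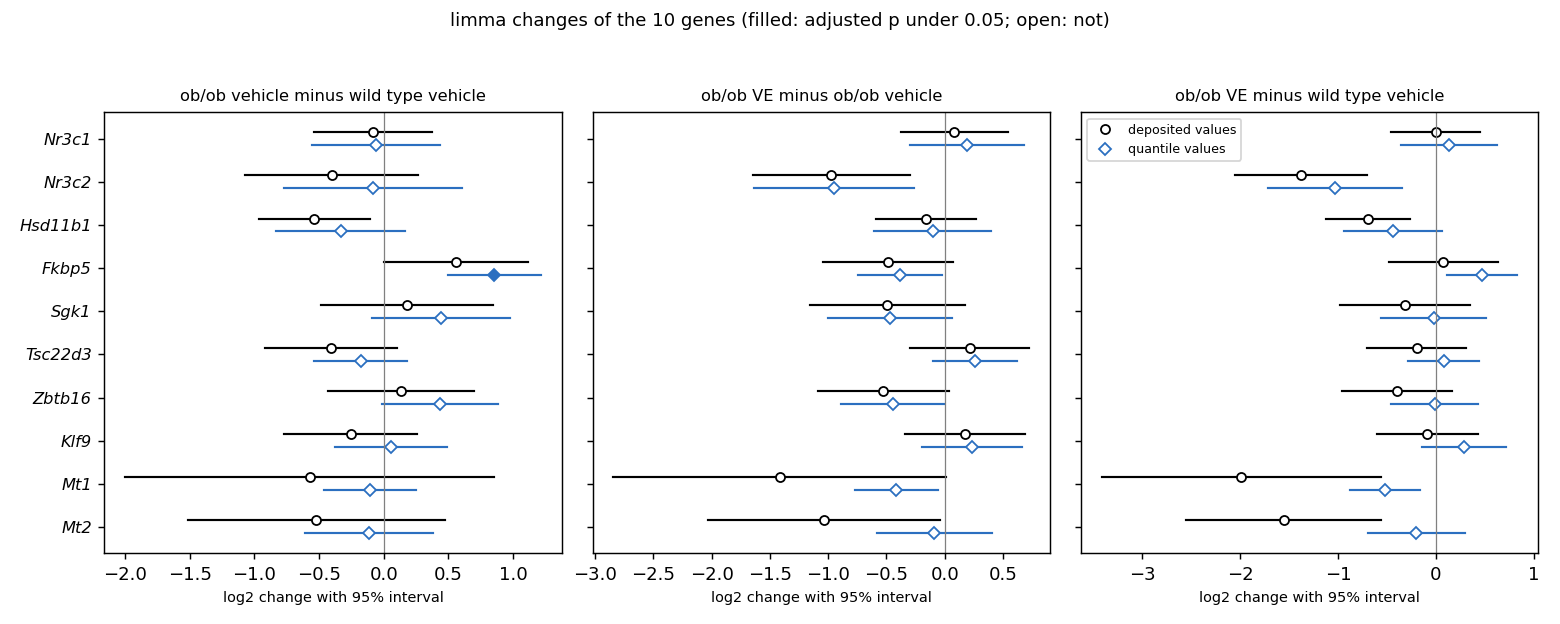
limma log2 change (horizontal axis) with its 95% interval for the 10 genes in the 3 comparisons, on deposited (black circles) and quantile-normalized values (blue diamonds), n = 3 arrays per group. Filled symbols passed at adjusted p under 0.05: the 1 filled symbol is Fkbp5 in ob/ob vehicle against wild type after quantile normalization, at 0.85.

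Of the other metallothioneins, Mt4 passed the test in ob/ob vehicle against wild type and Mt3 did not. Mt4, a form known from stratified epithelium, rose by 1.22 in ob/ob vehicle (limma adjusted p 0.0424, SE 0.254, n = 3 per group), from 5.64, 5.84 and 5.64 to 6.43, 6.81 and 7.53, and was at 5.92, 5.92 and 5.90 with VE. After quantile normalization the rise was 1.08 (adjusted p 0.0359). The call was lost without any 1 of the wild-type or ob/ob vehicle arrays or VE array 3, with an adjusted p of up to 0.196. The Mt4 signals lie below the median of their array on every array except ob/ob vehicle array 3. No detection calls were used, so whether Mt4 is above background is not known and the size of the change is uncertain. Mt3, the form of neurons and astrocytes, was at 12.95, 13.53 and 13.18 in wild type, 12.53, 12.03 and 12.08 in ob/ob vehicle, and 12.44, 11.68 and 12.00 with VE. Its difference of -1.01 in ob/ob vehicle did not pass (SE 0.250, limma adjusted p 0.0649) but did in 7 of 18 alternatives. Those alternatives called 389 to 3601 probe sets, against 281 on the deposited values. Mt3 was singled out after its values were seen. Of 8 genes of this list, with the zinc sensor Mtf1 and zinc carriers, Mt4 was the 1 called in ob/ob vehicle against wild type.

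Chaperones and co-regulators of the receptor had 0 of 12 measured genes called by limma in each of the 3 comparisons under both scalings; by the looser rule 3 passed, all lower, in ob/ob vehicle on the deposited values, where 10.2% of all probe sets were lower, and 1 after quantile normalization, where 9.43% were. In ob/ob vehicle their median was -0.31 on the deposited values and -0.09 after quantile normalization, against 0.02 and -0.01 over all probe sets. Over the 7402 brightest probe sets it was -0.27 and -0.04. Stip1, the organizer that hands clients from Hsp70 to Hsp90, was at 12.67, 13.03 and 12.67 in wild type, 11.71, 11.77 and 11.88 in ob/ob vehicle, and 12.30, 11.51 and 12.11 with VE. Its ob/ob vehicle value was -1.0 (SE 0.232, limma adjusted p 0.0544, n = 3 per group), and -0.68 after quantile normalization (adjusted p 0.0713). It passed in 7 of 18 alternatives, among them without VE array 1 or 2 (limma adjusted p 0.0454 and 0.00388). Those 2 called 389 and 2975 of all 22206 probe sets, against 281 with all arrays, so the passes were not particular to Stip1. The coactivator Ncoa1 was at -0.61 (SE 0.193, adjusted p 0.111) and the chaperone Hsp90aa1 at -0.73 (SE 0.319, adjusted p 0.226), and after quantile normalization at -0.30 and -0.22.

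Of 32 measured genes outside the members that glucocorticoids are known to induce, 0 were called by limma in ob/ob vehicle against wild type or with VE against ob/ob vehicle, under either scaling. By the looser rule 1 was higher and 8 were lower in ob/ob vehicle, and 0 and 2 with VE, on the deposited values. Over all probe sets 9.88% were higher and 10.2% lower in ob/ob vehicle, and 3.21% and 10.1% with VE. After quantile normalization the counts were 0 higher and 4 lower in ob/ob vehicle, and 3 and 2 with VE. Over all probe sets 8.81% were then higher and 9.43% lower in ob/ob vehicle, and 7.77% and 9.12% with VE. Their medians in ob/ob vehicle were -0.19 on the deposited values and -0.12 after quantile normalization. Wipf3, a regulator of actin assembly, fell by 1.46 in VE against wild type (SE 0.244, limma adjusted p 0.0472, n = 3 per group), from 11.37, 12.03 and 11.90 to 10.67, 9.90 and 10.35, with ob/ob vehicle between at 10.84, 10.99 and 10.95. After quantile normalization it was -1.16 and did not pass (adjusted p 0.167). Bcl6, a transcriptional repressor, was at 8.88, 9.0 and 9.27 in wild type, 8.52, 7.96 and 8.16 in ob/ob vehicle, and 7.86, 7.60 and 7.94 with VE. Wipf3 and Bcl6 passed the moderated F test for any difference among the groups (limma adjusted p 0.0362 and 0.0368), and after quantile normalization as well (0.0331 and 0.0249).

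Of the hypothalamic-pituitary-adrenal axis, 0 of 14 genes were called by limma in any of the 3 comparisons under either scaling, and by the looser rule 2 were higher and 1 lower in ob/ob vehicle and 5 lower with VE on the deposited values, where 9.88%, 10.2% and 10.1% of all probe sets were. After quantile normalization 2 were higher and 0 lower in ob/ob vehicle, and 1 higher and 4 lower with VE. Over all probe sets the shares were 8.81% and 9.43% in ob/ob vehicle, and 7.77% and 9.12% with VE. Mc2r, the receptor for ACTH, was at 6.48, 6.37 and 6.46 in wild type, 6.92, 7.27 and 7.53 in ob/ob vehicle, and 6.35, 5.12 and 6.14 with VE. With VE against ob/ob vehicle its difference of -1.37 came near the threshold (SE 0.292, limma adjusted p 0.0598, n = 3 per group). After quantile normalization it was -1.32 (limma adjusted p 0.0503). It passed in 6 of 17 alternatives, among them without VE array 1 or 2 (limma adjusted p 0.0361 and 0.0282). Those 2 called 134 and 403 of all 22206 probe sets, against 108 with all arrays. The Mc2r signals lie below the median of their array except on ob/ob vehicle arrays 2 and 3. No detection calls were used, so whether Mc2r is above background is not known. Ucn, the urocortin peptide, was at 0.61 in ob/ob vehicle (SE 0.229, limma adjusted p 0.165) and -0.55 with VE (adjusted p 0.313). Crhbp, the protein that binds corticotropin-releasing hormone, was at -0.42 and -0.12 (limma adjusted p 0.238 and 0.843). After quantile normalization Ucn was at 0.56 and -0.49 and Crhbp at -0.33 and -0.04.

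Steroid enzymes and carriers had 0 of 12 measured genes called by limma in any comparison under either scaling. By the looser rule 2 passed, both higher, in ob/ob vehicle on the deposited values, where 9.88% of all probe sets were higher. After quantile normalization 0 passed in ob/ob vehicle, where 18.2% of all did. With VE 1 was then higher, where 7.77% of all were. Serpina6, corticosteroid-binding globulin, was at 0.61 in ob/ob vehicle (limma adjusted p 0.187, SE 0.245, n = 3 per group) and -0.20 with VE. Cyp21a1, the steroid 21-hydroxylase, was at 0.54 (SE 0.241, adjusted p 0.236) and -0.18. Abcb1a, the endothelial pump that limits entry of some glucocorticoids, was at -0.49 (SE 0.258, adjusted p 0.308) and 0.52. After quantile normalization the ob/ob vehicle values of Serpina6, Cyp21a1 and Abcb1a were 0.48, 0.35 and -0.28, and those with VE -0.06, -0.06 and 0.57. The deposited signals of Serpina6 and Cyp21a1 lie below the median of their array on every array. No detection calls were used, so whether these genes are above background is not known.

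The genes whose profile over the 9 arrays was nearest to that of Fkbp5 differed from it by a root mean square of 0.101 to 0.112 log2 units after each gene's own mean was removed, against an SD of 0.395 for Fkbp5 itself, among 16714 genes compared. They were Vmn1r63 and Vmn1r187, vomeronasal receptors with the same values on every array, Ddx46 and Luc7l2, of RNA splicing, and Olfr1179, an olfactory receptor. For Nr3c1 they were Ilvbl, Zfp780b, Clca1, Spib and Abracl, at 0.0494 to 0.0845 against an SD of 0.186 among 18528 genes. No member was among the candidates, and with that many genes over 9 arrays a near profile is a description only.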

How the data were processed

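The deposited values are log2 signals per probe set, which the authors obtained by SST-RMA (robust multi-chip analysis after a signal space transformation); the software was Transcriptome Analysis Console, version 4.0.2, as the series text and the submitters' processing notes state; the probe-level files, the detection calls and the genome build were not used here. Symbols came from the platform annotation. limma 3.58.1 in R 4.3.3 fitted a mean per group over 9 arrays (6 residual and 7.03 prior degrees of freedom), adjusted over 22206 probe sets; scripts were tested on simulated data. Precision is limited by 3 arrays per group. Medians of lists are medians of log2 changes. Members and lists were chosen with earlier results of these data known. Pathway genes named are those called in any test under either scaling, or else the 3 of a list with the smallest F-test p. Profiles nearest to Fkbp5 and Nr3c1 were taken from genes whose SD was at least 0.5 times theirs, members and predicted genes left out. Promoter sequences are RefSeq's. Alternatives were 3 other scalings, quantile normalization without VE array 2, other moderation, array weights, a filter on dim probe sets, compared groups alone, the replicate number as a block, other call rules, and leaving out each array.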

Additional observations from a re-analysis of the deposited data

How the results depend on the processing

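Of 30 member changes, 8 took the other sign in at least 1 alternative and 6 were called in at least 1, out of 18 alternatives each (27 for Fkbp5). The causes of these shifts were not tested. Probe sets called by limma in ob/ob vehicle against wild type, with VE against ob/ob vehicle and with VE against wild type numbered 281, 108 and 22 on the deposited values. They numbered 631, 324 and 0 after quantile normalization, 614, 71 and 7 with arrays centred on their median, and 808, 376 and 0 after cyclic loess. They numbered 3601, 3307 and 3286 with array weights, 2626, 0 and 0 in the compared groups alone, 4457, 2962 and 2707 by the rule of the series text, and 1204, 433 and 109 at adjusted p under 0.1. Quantile normalization without VE array 2 gave 1970 and 418 in the first and second comparison. With VE against either group, trended robust moderation gave 225 and 10, and probe sets above the median level gave 180 and 49. Leaving out 1 array gave 0 to 2975, 0 to 403 and 0 to 158; 2975 and 403 came without VE array 2 and 158 without VE array 1.

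Members called in ob/ob vehicle against wild type were 1 after quantile normalization, cyclic loess, quantile normalization without VE array 2, or array weights, and 2 by the rule of the series text. With VE against ob/ob vehicle they were 1 with array weights and 2 by that rule, and with VE against wild type 4 by either, and 0 to 1 with an array left out. In the F test they were 1 under those 3 scalings, 4 with array weights, 4 at unadjusted p under 0.05, 1 at adjusted p under 0.1, and 0 to 2 with an array left out.

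Deviations of same-numbered arrays from their group means correlated at -0.03 to 0.33. Differently numbered arrays were not compared, so whether the replicate numbers pair the samples was not tested. With the replicate number as a block, 251, 144 and 2 probe sets and 0, 0 and 0 members were called.

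After quantile normalization, cyclic loess and quantile normalization without VE array 2, in that order, Klf9 in ob/ob vehicle was at 0.053, 0.0598 and 0.0533, and against wild type with VE Klf9 was at 0.29, 0.28 and 0.20 and Tsc22d3 at 0.0806, 0.0701 and 0.12. Zbtb16 with VE against wild type was at 0.0194 after loess and 0.0142 after quantile normalization without VE array 2. With VE against ob/ob vehicle, Nr3c1 was at -0.0856 after quantile normalization without VE array 2 and -0.14 with array weights. There Hsp90aa1 was at 0.42, 0.10, 0.32, 0.30 and 0.29 after quantile normalization, centring, loess, quantile normalization without VE array 2 and array weights, Ncoa1 at 0.0363, 0.0933 and 0.0332 after the first 3 of these, and Crhbp at 0.0033 after centring. Hsp90aa1 with VE against wild type was at 0.20 and 0.0717 after quantile normalization with and without VE array 2.

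With an array left out, Sgk1 in ob/ob vehicle ranged from -0.045 to 0.41. With VE against ob/ob vehicle the ranges were -0.085 to 0.215 for Nr3c1, -0.085 to 0.35 for Klf9, -0.125 to 0.05 for Ncoa1, -0.32 to 0.44 for Hsp90aa1, -0.32 to 0.0133 for Cyp21a1 and -0.37 to 0.0067 for Mt3. With VE against wild type they were -0.16 to 0.38 for Fkbp5, -0.41 to 0.04 for Tsc22d3, -0.34 to 0.0933 for Klf9, -0.12 to 0.23 for Abcb1a and -0.0617 to 0.29 for Ucn.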
